A study of Mus musculus with 30 samples.

Results

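Moderately transcribed enhancers of mouse embryonic stem cells are described here over a 12 h course of SPT16 depletion. An enhancer was counted as moderately transcribed when its mean normalised count in the authors' deposited 0 h enhancer RNA (eRNA) table was at least 10 and under 50. This rule picked 3121 of 15438 enhancer rows (20.2%). The rule used only the 0 h table, so the 0 h values below describe how the enhancers were chosen and were not tested. Of the remaining enhancers, 2017 stood at 50 or more, 6826 above 0 and under 10, and 3474 at 0. At the lower bound ENH1780 and ENH4444 lay just outside (both 9.99) and ENH14188 (10.0) and ENH14647 (10.01) just inside. At the upper bound ENH4595 (49.94) and ENH1494 (49.95) were inside and ENH8161 (50.12) and ENH3958 (50.22) outside.

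Enhancers are DNA elements that bind transcription factors and raise transcription of genes at a distance. Active ones are themselves transcribed by RNA polymerase II into short, quickly degraded eRNAs, so these are best seen in newly made RNA. FACT, the histone chaperone formed by SPT16 and SSRP1, loosens and reassembles nucleosomes in the path of the polymerase. In embryonic stem cells, enhancers bound by OCT4, SOX2 and NANOG support the expression of pluripotency genes.

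The RNA was captured by TT-seq, which labels RNA made during a brief 4-thiouridine pulse (5 min per the labels) and sequences the labelled RNA. The cells were E14 mouse embryonic stem cells grown without feeders in serum with LIF and inhibitors of GSK3 and MEK, all carrying the auxin receptor osTIR1. In the SPT16-AID cells the gene for SPT16, Supt16, also carries a C-terminal degron and V5 tag, and the 2 tagged lines, Clone1 and Clone2, were targeted independently. The auxin 3-IAA (500 nM) brings about loss of the tagged protein, with ethanol (EtOH) as vehicle. By the titles, the 0 h libraries are 2 of untagged cells and 2 of SPT16-AID cells. At each of 3, 6 and 12 h there are 2 of untagged cells with IAA, 2 of SPT16-AID cells with EtOH and 2 of SPT16-AID cells with IAA. For many of these libraries the tag and treatment fields of the labels contradict the titles. The treatment protocol of the labels also gives 24 h of treatment, so the times used here rest on the titles and the tables' names. The untagged libraries are numbered Rep1 and Rep2, and no label says that these came from separate cultures.

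For enhancers, the authors' deposited tables give 1 value per row and time: a mean normalised count, a log2 fold change shrunken toward 0 with its standard error (SE), a p-value and an adjusted p. They give no value per library, so each result below is the authors' own estimate with its SE, and spread between replicates cannot be seen directly. The SE belongs to the shrunken fold. Its median over the 3121 enhancers was 0.001 at 0 h and 0.159, 0.317 and 0.502 at 3, 6 and 12 h. A small SE beside a fold near 0 therefore does not show close replicates. The tables state neither which groups each compares nor in which direction. Changes are therefore called positive or negative as signed. They also give no position, sequence or gene for an enhancer, which is named by its row ID only. Each library is listed in the labels with the tables of its own time alone.

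How the sign reads on known genes can be seen in the authors' deposited gene tables. Esrrb, an orphan nuclear receptor of the naive pluripotency network, was at −0.12 at 3 h, −0.59 at 6 h (adjusted p = 0.113) and −2.05 ± 0.35 (SE) at 12 h (adjusted p = 2.47e-08) per the authors' deposited tables. Zfp42, the stem cell marker also called Rex1, was at −0.12, −0.83 ± 0.21 (adjusted p = 0.00221) and −1.85 ± 0.25 (adjusted p = 9.51e-12) there. Nanog (−0.77, adjusted p = 0.0284) and Tbx3 (−1.15, adjusted p = 1.16e-06) were negative at 12 h in the authors' deposited table, while Pou5f1 (0.12, adjusted p = 0.777), Sox2 (−0.47, adjusted p = 0.237) and Klf4 (−0.24, adjusted p = 0.501) did not pass. The targeted gene Supt16 stood at 0.11, 0.07 and 0.06 at 3, 6 and 12 h and its partner Ssrp1 at 0.73 (adjusted p = 0.0507), 0.15 and 0.03 in the authors' deposited tables. The degron acts on the protein, so these RNA values do not check depletion. Of lineage markers that stem cells should lack, Sox17 had a mean count of 1.34 at 0 h, Gata6 27.2, Cdx2 64.7, Gata4 160 and Eomes 261, against 5610 for Pou5f1 and 15575 for Nanog, in the authors' deposited gene table. These are mean counts and are not scaled for gene length.

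The level of the moderately transcribed enhancers differed between the tables. Their median mean count was 23.2 (quartiles 15.4 and 34.0) at 0 h, 13.3 (8.33 and 19.9) at 3 h, 7.15 (4.38 and 10.8) at 6 h and 7.52 (4.70 and 11.5) at 12 h in the authors' deposited tables. Enhancers of 50 or more at 0 h went from 91.4 to 57.8, 30.8 and 30.3 in the same tables. Both classes thus kept similar proportions of their 0 h medians, 0.324 and 0.331 at 12 h. Whether the tables were normalised together is not given in the sources used here, so a lower value may reflect the depth of the libraries or less RNA, and these cannot be told apart. Of the 3121 enhancers, 2034 were still between 10 and 50 at 3 h, 918 at 6 h and 1009 at 12 h, and 2195 and 2092 lay under 10 at the later times.

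**Figure D1:**
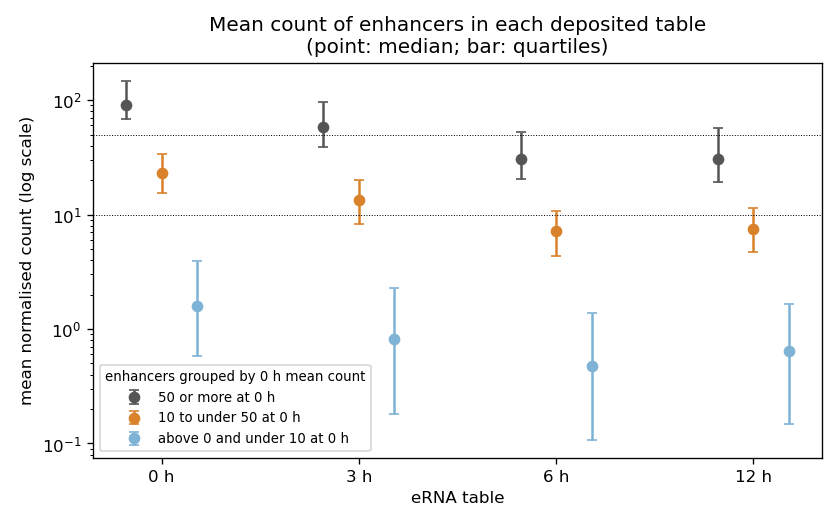
Mean normalised count (log scale) of enhancers in the 4 deposited eRNA tables, grouped by their 0 h level, with points for medians, bars for quartiles and dotted lines at 10 and 50. The median of the moderately transcribed enhancers lies at 23.2 at 0 h and at 7.15 and 7.52 at 6 and 12 h.

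The level in each table also set which enhancers received an adjusted p. The authors' deposited tables hold none below a mean count of 42.5 at 3 h, 13.7 at 6 h and 2.41 at 12 h, so only 31 of the 3121 enhancers had one at 3 h and 401 at 6 h, against 2942 at 12 h. An enhancer whose RNA is high in 1 group has a higher mean count and is more readily kept, so the calls at 3 and 6 h are not a sample of all 3121.

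Before auxin, 0 of the 3121 enhancers passed an adjusted p of 0.05 at 0 h, as did 0% of all 11964 enhancers with an adjusted p (the authors' test, Benjamini-Hochberg adjusted). At an unadjusted p under 0.05 there were 13 positive and 13 negative, against 0.41% positive and 0.293% negative among all enhancers in the authors' deposited table. The shrinkage was near complete there: 3119 of 3121 values lay within 0.001 of 0. The 2 others were ENH9485 (5.13 ± 1.70, p = 0.000374) and ENH7070 (1.80 ± 1.71, p = 0.00387), each with an adjusted p of 1 per the authors' deposited table. Neither was called later. ENH9485 stood at −0.01 at 3 h, 0.00 at 6 h and 0.53 ± 0.88 at 12 h (adjusted p = 0.226) per the authors' deposited tables. ENH4698 (p = 0.0127) and ENH7067 (p = 0.013) came next in the authors' deposited table, with folds within 0.001 of 0 and an adjusted p of 1.

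At 3 h, 3 moderately transcribed enhancers were positive and 0 negative among the 31 with an adjusted p. Over all enhancers 5.42% of 1440 were positive and 0% negative in the authors' deposited table. The 3 were ENH5846 (1.58 ± 0.54, adjusted p = 0.00865), ENH6562 (1.43 ± 0.50, adjusted p = 0.00922) and ENH1350 (1.18 ± 0.55, adjusted p = 0.0321). Their mean counts at 3 h were 42.8, 63.8 and 43.8, all at or above the level needed for an adjusted p. With the adjustment run over every row of the table, 0 of the 3121 passed. At an unadjusted p under 0.05, 62 were positive (1.99%) and 27 negative (0.865%), against 2.43% and 0.778% over all enhancers in the authors' deposited table. The median of the 3121 was −0.0033 and that of all enhancers −0.0019, with 44.7% and 42.3% positive signs. The largest value without a call was that of ENH15283, named after its values were seen, at 1.76 ± 1.77 with a mean count of 5.55 and no adjusted p per the authors' deposited table.

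At 6 h, 34 moderately transcribed enhancers were positive and 0 negative among the 401 with an adjusted p. Over all 2285 enhancers with one, 6% were positive and 0.919% negative in the authors' deposited table. The highest was ENH1079 at 2.48 ± 0.51 (adjusted p = 9.49e-05), with a mean count of 29.8. After it came ENH8117 (2.10 ± 0.55, adjusted p = 0.00159), ENH13396 (2.01 ± 0.44, adjusted p = 0.000145), ENH14337 (1.98 ± 0.57, adjusted p = 0.00261) and ENH8805 (1.78 ± 0.45, adjusted p = 0.00105) per the authors' deposited table. The 34 ran from 1.08 to 2.48 (median 1.36), with SEs of 0.44 to 0.70. These folds are shrunken, so the smallest of them is no limit of detection. With the adjustment run over every row of the table, 14 passed.

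Negative values at 6 h did exist among enhancers without an adjusted p. At an unadjusted p under 0.05, 187 of the 3121 were positive (5.99%) and 81 negative (2.60%), against 4.2% and 2.03% over all enhancers in the authors' deposited table. The lowest, ENH3754, named after its values were seen, was at −4.09 ± 2.44 (p = 0.00115) with a mean count of 5.70 in the authors' deposited table, under the level for an adjusted p. Its value at 12 h was 0.23 ± 0.52. Signs were near even, at 49.8% positive among the 3121 and 48.3% over all enhancers, with medians of −0.0005 and −0.0029. When the class was drawn from the 6 h mean counts instead, 62 were positive and 15 negative of 1730 with an adjusted p. Over all 2285 enhancers with one, the shares were 6% and 0.919%. That class holds 2364 enhancers, of which 1440 stood at 50 or more at 0 h.

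At 12 h, 68 moderately transcribed enhancers were positive and 13 negative, which is 2.31% and 0.442% of the 2942 that had an adjusted p. Over the 6056 enhancers of the table with one, 2.54% were positive and 2.01% negative in the authors' deposited table, so the positive share lies near that of all enhancers and the negative share below it. The highest were ENH13828 (2.73 ± 0.74, adjusted p = 0.00328), ENH2743 (2.68 ± 0.54, adjusted p = 0.000125) and ENH2812 (2.52 ± 0.73, adjusted p = 0.00517). ENH9083 (2.51 ± 0.72, adjusted p = 0.00509) and ENH2104 (2.46 ± 0.62, adjusted p = 0.00175) followed in the authors' deposited table. All 68 lay between 1.24 and 2.73 (median 1.74, SEs 0.46 to 0.90). Their median mean count at 12 h was 20.4, against 7.76 for enhancers tested and not called, and both groups had a median of 24.1 at 0 h. RNA that is high in 1 group raises the mean count, and higher counts make a call easier. The contrast is thus no separate result.

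Most of the 13 negative enhancers had wide errors. ENH4929 was at −5.10 ± 2.41 (adjusted p = 0.0149), ENH1168 at −4.76 ± 2.51 (adjusted p = 0.0249), ENH14594 at −4.44 ± 2.41 (adjusted p = 0.0289), ENH5634 at −4.37 ± 2.43 (adjusted p = 0.0304) and ENH1925 at −4.36 ± 2.41 (adjusted p = 0.0301) per the authors' deposited table. In all, 11 of the 13 had an SE over 2. The other two were ENH16 (−2.11 ± 0.88, adjusted p = 0.0431) and ENH4732 (−1.66 ± 0.64, adjusted p = 0.0336) per the authors' deposited table, named because their SEs set them apart. Among all 3121 enhancers 33 had an SE over 2 at 12 h, all 33 negative, with mean counts from 3.49 to 8.55. Over the enhancers of every 0 h level, 35 of 69 such rows were negative. Leaving out the rows of SE over 2, a cut chosen after seeing the data, removed those 11 by construction and left 2 negative calls. With the adjustment over every row 44 positive and 2 negative calls passed. Those 2 were ENH4929 and ENH1168, both of SE over 2. None of the 13 thus passed under both alternatives, which for the 11 of SE over 2 follows from the cut itself. With rows under a mean count of 10 left out of the adjustment, 6 negative calls passed. None of these could have an SE over 2, since such rows had mean counts of at most 8.55. They include enhancers outside the 13.

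The count of negative enhancers also depended on the table that set the level. When enhancers with a mean count of 10 to under 50 in the 12 h table itself were taken, 67 were positive and 78 negative of 2430. These include enhancers that stood at 50 or more at 0 h. At an unadjusted p under 0.05 the 3121 enhancers were split more evenly, with 255 positive (8.17%) and 236 negative (7.56%), against 5.48% and 6.1% over all enhancers in the authors' deposited table. Their median was −0.0358, with 45.1% positive signs, and that of all enhancers −0.02 with 43.9%. Values above 1 were held by 155 and values below −1 by 134.

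**Figure D2:**
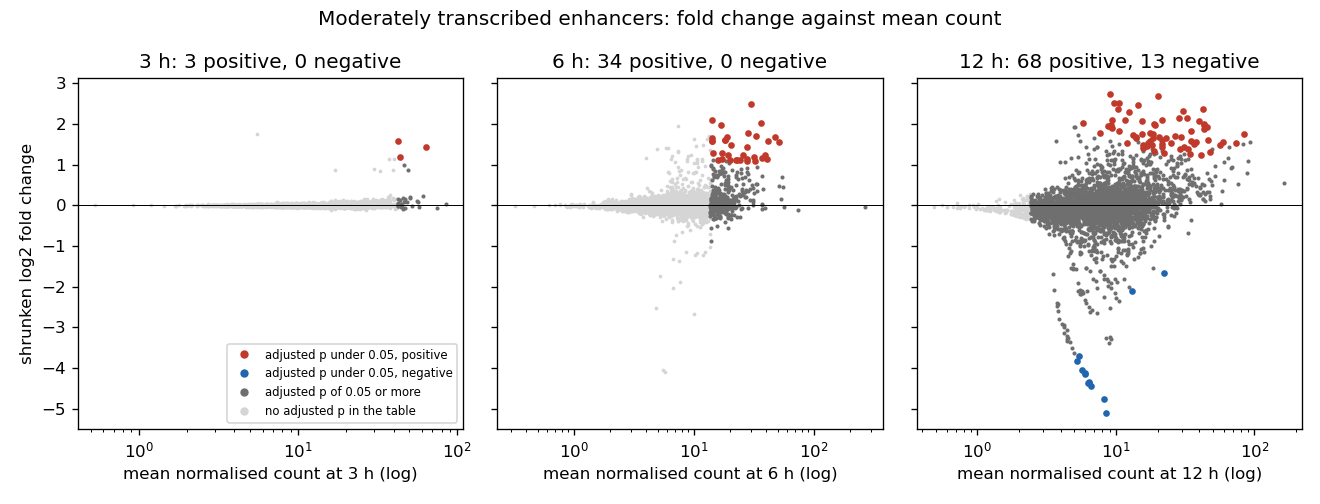
Shrunken log2 fold change against mean normalised count (log scale) of the same time for the 3121 moderately transcribed enhancers at 3, 6 and 12 h, with 1 point per enhancer. Coloured points passed an adjusted p of 0.05 (3, 34 and 68 positive, 0, 0 and 13 negative), and light grey points had no adjusted p, which at 3 h is all but 31.

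**Figure D3:**
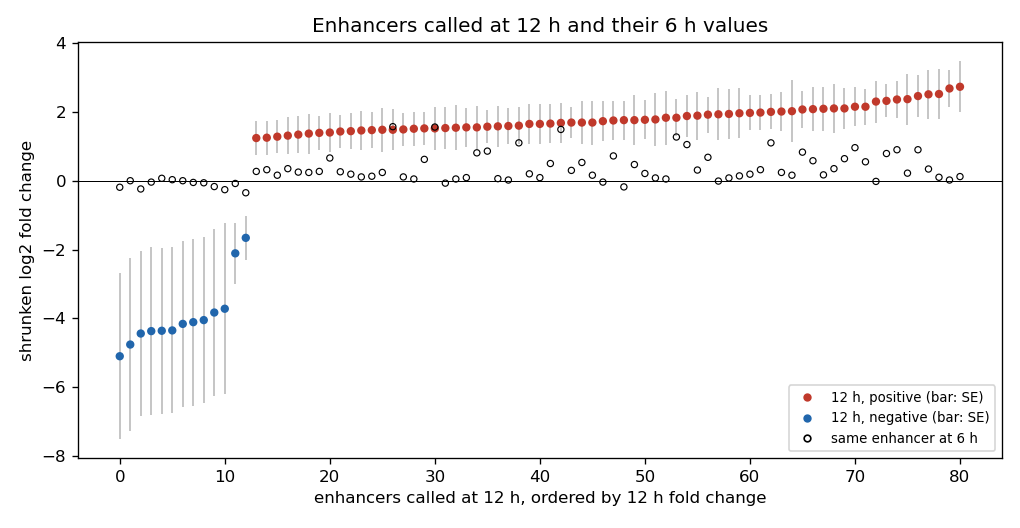
Shrunken log2 fold change with its SE for the 81 enhancers called at 12 h, in order of size, with the 6 h value of each as an open circle. The 68 positive ones lie at 1.24 to 2.73 with SEs under 1, and 11 of the 13 negative ones have SEs over 2 and 6 h values near 0. The 6 h values are shrunken more than those of 12 h.

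Only a few enhancers were called at more than 1 time. Of the 34 positive at 6 h, 4 were also positive at 12 h (11.8% of the 6 h list and 5.88% of the 12 h list), and of the 3 positive at 3 h, 1 was positive at 6 h and 2 at 12 h. None was called in opposite directions. Many could not be called at an earlier time. Of the 68 positive at 12 h, only 28 held an adjusted p at 6 h and 3 at 3 h. Of the 34 positive at 6 h, 8 held one at 3 h. The overlap is thus no measure of how lasting the changes were, and that over all enhancers was not counted. ENH1350 was positive at all 3 times, at 1.18 ± 0.55, 1.56 ± 0.54 (adjusted p = 0.00832) and 1.52 ± 0.62 (adjusted p = 0.0404) per the authors' deposited tables. Its mean count was 37.4 at 0 h, 43.8 at 3 h, 51.0 at 6 h and 73.4 at 12 h, while the class median fell. No enhancer below a mean count of 42.5 held an adjusted p at 3 h, so its call there required such a rise. Of the 28 enhancers with an adjusted p and no call at 3 h, 23 also lay above their own 0 h mean count. The rise is thus no separate result.

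ENH6562 was positive at 3 and 12 h (1.43 ± 0.50 and 1.76 ± 0.72, adjusted p = 0.0382 at 12 h) and did not pass at 6 h (0.47 ± 0.51, adjusted p = 0.221) per the authors' deposited tables. ENH590, ENH10368 and ENH15107 were positive at 6 and 12 h. ENH590 was at 0.01 ± 0.16 at 3 h, 1.27 ± 0.63 (adjusted p = 0.0365) at 6 h and 1.83 ± 0.53 (adjusted p = 0.00555) at 12 h per the authors' deposited tables. ENH10368 stood at 0.15, 1.10 ± 0.55 (adjusted p = 0.042) and 1.60 ± 0.53 (adjusted p = 0.0167), and ENH15107 at 0.10, 1.57 ± 0.46 (adjusted p = 0.00332) and 1.48 ± 0.59 (adjusted p = 0.0375). With the adjustment run over every row, 0 of the 5 were called at more than 1 time: ENH1350 passed at 6 h only (adjusted p = 0.261 at 3 h and 0.0758 at 12 h), ENH15107 at 6 h, ENH590 and ENH10368 at 12 h, and ENH6562 at none. The tables hold no test of a step between times, and the SEs of neighbouring times overlap for most of these enhancers from 6 to 12 h. Shrinkage was also stronger at 3 and 6 h than at 12 h, so the sizes do not compare directly between times.

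**Figure D4:**
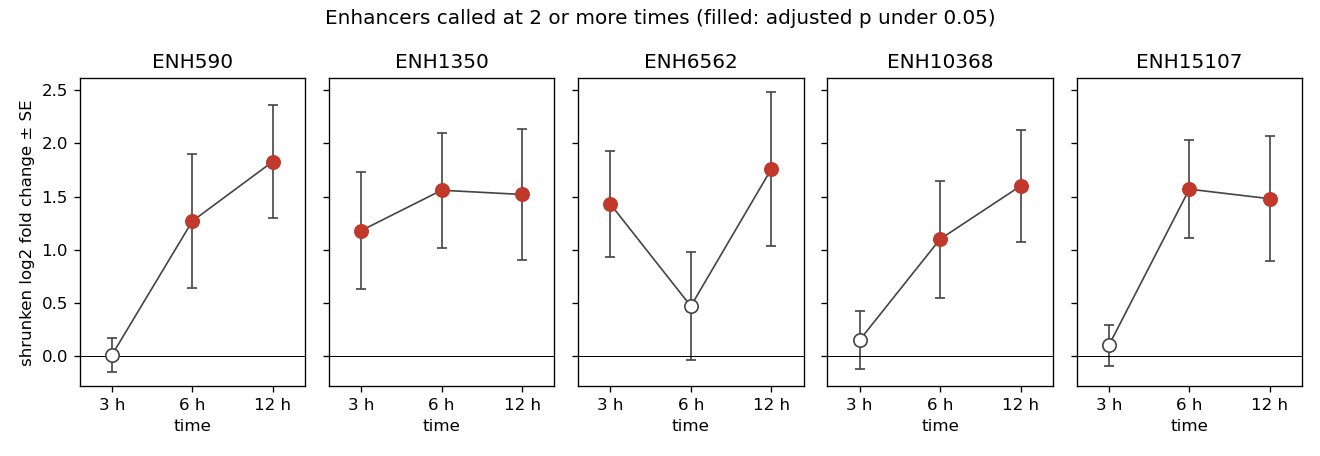
Shrunken log2 fold change ± SE at 3, 6 and 12 h of the 5 enhancers called at 2 or more times, with filled points where the deposited adjusted p was under 0.05. With the adjustment over every row 0 of the 5 are called at more than 1 time. ENH1350 is filled at all 3 times, and ENH590 lies at 0.01 at 3 h and 1.83 at 12 h. Values are shrunken more at 3 and 6 h than at 12 h, so sizes do not compare directly between times.

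Enhancers called at 1 time often had small values of the same sign at the others. The folds were shrunken more at earlier times. Among members with an unadjusted p under 0.05, median fold over SE was 0.23, 0.42 and 0.61 of the size their p implies at 3, 6 and 12 h. Sizes at different times are therefore not directly comparable, and a small early value does not show a smaller change. The 34 positive enhancers of 6 h had a median of 0.09 at 3 h (0.01 to 1.18, positive in 34) and of 0.66 at 12 h (−0.18 to 1.83, positive in 33) in the authors' deposited tables. Over all 3121 enhancers 44.7% of signs were positive at 3 h and 45.1% at 12 h. At 12 h 15 of the 34 were positive at an unadjusted p under 0.05, against 8.17% of the 3121. ENH1079, the highest at 6 h, was at 0.18 ± 0.32 at 3 h and 0.63 ± 0.60 at 12 h (adjusted p = 0.303), and ENH8117 at 0.07 and 0.67 ± 0.52 (adjusted p = 0.252) per the authors' deposited tables. ENH13396 (1.15 ± 0.57, adjusted p = 0.0871) and ENH14337 (1.29 ± 0.73, adjusted p = 0.0958) were nearer to the threshold at 12 h.

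The 68 positive enhancers of 12 h had a median of 0.26 at 6 h (−0.18 to 1.57) and were positive there in 63 cases, 26 of them at an unadjusted p under 0.05, in the authors' deposited tables. At 3 h their median was 0.03, with 50 positive. Over all 3121 enhancers 49.8% of signs were positive at 6 h, 5.99% at an unadjusted p under 0.05, and 44.7% of signs at 3 h. The leading enhancers of 12 h were among those with small earlier values: ENH2743 stood at −0.02 ± 0.16 and 0.02 ± 0.29 at 3 and 6 h, and ENH13828 at 0.03 ± 0.16 and 0.12 ± 0.32. ENH2104 was at 0.90 ± 0.92 at 6 h (adjusted p = 0.103). The 13 negative enhancers had a median of −0.02 at 3 h (−0.07 to 0.01) and −0.06 at 6 h (−0.35 to 0.07), with 9 negative at each, and 0 passed an unadjusted p of 0.05 there. How far such agreement reflects clones that recur at every time was not tested.

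The direction of the nominal changes at 12 h differed along the 0 h level. Of enhancers with 10 to under 20 mean counts at 0 h, 8.91% were positive and 4.77% negative at an unadjusted p under 0.05 (112 and 60 of 1257). In the band of 20 to under 30 the shares were 8.52% and 8.27%, in that of 30 to under 40 7.81% and 9.30%, and in that of 40 to under 50 5.92% and 11.8% (26 and 52 of 439) in the authors' deposited table. Enhancers of 50 or more stood at 4.22% positive and 21.8% negative, and those above 0 and under 10 at 4.97% and 0.556%. The negative share was thus higher at each higher 0 h level over all these classes, while the positive share was highest at 10 to under 20 and lower on both sides. Adjusted calls were 13 positive and 109 negative at 50 or more (0.646% and 5.41% of 2013 with an adjusted p). Under 10 they were 69 positive and 0 negative (6.31% and 0% of 1093). Only 19.6% of the 5571 enhancers under 10 with a p-value held an adjusted p, and those high in 1 group are more readily kept. The order of these shares is a description and was not tested.

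Median log2 fold changes stood at −0.0108 for enhancers above 0 and under 10, at −0.0069, −0.0386, −0.0651 and −0.1039 in the 4 bands and −0.2144 for enhancers of 50 or more. Their order was not tested, and the class under 10 lies below the lowest band. The counts behind the bands differ too. The median mean count at 12 h was 4.74, 7.38, 10.4 and 12.9 in the 4 bands and 30.3 in enhancers of 50 or more; the part of depth in the order was not tested.

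At the earlier times nominally positive enhancers outnumbered negative ones in all 4 bands, by 13 to 12 in the lowest band at 3 h. Both signs together made up 1.99%, 2.31%, 4.65% and 3.87% of the 4 bands at 3 h. Each is below the share that a threshold of 0.05 passes where nothing changes. The shares at 6 h were 6.68%, 9.37%, 9.80% and 10.9%. At 6 h the positive shares of the 4 bands were 4.77%, 7.06%, 6.48% and 6.83% and the negative ones 1.91%, 2.31%, 3.32% and 4.10% per the authors' deposited table. The positive shares at 3 h were 1.03%, 1.46%, 3.49% and 3.64%, and enhancers of 50 or more stood at 10.2% positive and 1.14% negative. Among these more strongly transcribed enhancers 75 were positive and 0 negative at 3 h (5.32% and 0% of 1409 with an adjusted p) in calls of the authors' deposited tables. At 6 h 103 were positive and 21 negative (5.47% and 1.12% of 1883).

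**Figure D5:**
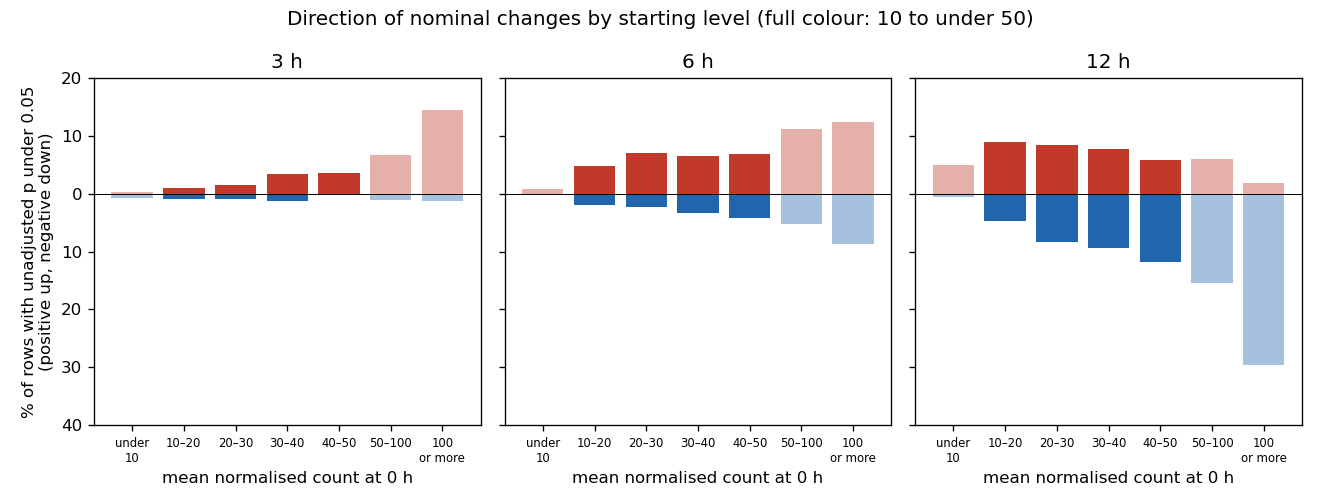
Percentage of enhancers with an unadjusted p under 0.05 at 3, 6 and 12 h, positive upward and negative downward, by mean normalised count at 0 h, with the moderately transcribed bands in full colour. At 12 h the negative share goes from 4.77% at 10 to 20 to 11.8% at 40 to 50, and the positive share from 8.91% to 5.92%.

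Other noncoding features were taken from the same range of 0 h mean counts. The tables do not say which of them overlap the enhancers. Of 3535 DNase-hypersensitive sites (DHSs, stretches of open chromatin) with 10 to under 50 mean counts at 0 h, 20 were positive and 2 negative at 6 h out of 1878 holding an adjusted p (1.06% and 0.106%), and 73 and 30 at 12 h among 2848 (2.56% and 1.05%). Over all DHSs, 1.36% and 0.963% were called at 6 h and 3.6% and 5.73% at 12 h in the authors' deposited tables. Of 1486 PROMPTs (transcripts upstream of promoters) of that level, 2 were positive and 0 negative at 6 h out of 1440 holding one (0.139% and 0%), and 26 and 16 at 12 h among 1396 (1.86% and 1.15%). Over all PROMPTs the shares were 0.122% and 0% at 6 h and 3.11% and 1.93% at 12 h. The classes differ within the range, with 0 h medians of 19.1 (DHSs), 17.4 (PROMPTs) and 23.2 (enhancers). At 6 h 53.1%, 97.1% and 12.8% of them held an adjusted p, so the shares called rest on unlike parts of each class. At an unadjusted p under 0.05, the DHSs of this level had 213 positive and 218 negative at 12 h (6.03% and 6.17%), against 2.57% and 2.67% over all DHSs. The PROMPTs had 102 and 159 (6.88% and 10.7%), against 3.25% and 2.84% over all PROMPTs. These backgrounds hold 29394 DHSs and 11683 PROMPTs, most of them outside 10 to under 50 at 0 h. The part of the mean count in these differences was not tested. The enhancers stood at 8.17% and 7.56%. Rows with an SE over 2 at 12 h were negative in all 36 cases among these DHSs and all 26 among these PROMPTs in the authors' deposited tables. Among enhancers above 0 and under 10 at 0 h, by contrast, only 1 of 32 such rows was negative. The difference between classes was not tested.

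The row IDs carry numbers, and whether these follow position in the genome is not stated. Of the moderately transcribed enhancers, 646 pairs had consecutive numbers and values at 12 h. Their signs matched in 51.1% of pairs (Spearman's rho of −0.01 across pairs), and in 53.5% at 3 h (0.04) and 47.3% at 6 h (−0.02), for 647 pairs each. Among the 81 enhancers called at 12 h there were 3 such pairs. ENH2499 and ENH2500 were both positive (1.97 ± 0.51 and 1.37 ± 0.58, adjusted p = 0.00219 and 0.0443), as were ENH8684 and ENH8685 (1.55 ± 0.62 and 1.46 ± 0.58, adjusted p = 0.0363 and 0.0342) in the authors' deposited table. ENH1167 was positive (1.52 ± 0.49, adjusted p = 0.0149) and ENH1168 negative.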

How the data were processed

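TT-seq libraries of the time course were processed by the authors to comparison tables, and the mm10 build, STAR and deepTools are named in the submitters' processing notes without roles. The authors' deposited tables hold, per the file headers, a mean normalised count (a signal averaged over libraries), log2 fold changes with SE, and p-values with adjusted p-values. The columns are those of a results table of DESeq2, whose version is not given in the sources used here. The log2 values of the authors are shrunken: among moderately transcribed enhancers with an unadjusted p under 0.05, fold over SE was 0.23, 0.42 and 0.61 of the size their p implies (medians at 3, 6 and 12 h). The depth per library is unknown for enhancers. Washout files hold no enhancer rows and were not used.

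Enhancers were chosen and followed by row ID with Python 3.11.15 and pandas 2.3.3. A call is an adjusted p under 0.05 in the authors' table. Applying the Benjamini-Hochberg adjustment to the rows with an adjusted p gave the deposited values, and the function was tested on simulated data. Named enhancers were the 5 highest and 5 lowest calls at each time, those called at 2 or more times, the 4 smallest p-values at 0 h and the rows next to the bounds; others are marked in the text. The enhancers and lists were chosen with earlier results of these data known. Alternatives were the threshold, the rows adjusted over, the level bounds and leaving out rows of SE over 2, the last chosen after seeing the data.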

Additional observations from a re-analysis of the deposited data

How the results depend on the processing

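No paired analysis was possible because the enhancer tables hold no value per library, and for the same reason no replicate could be left out. At an adjusted p under 0.1, 5 moderately transcribed enhancers were positive at 3 h and 114 positive and 54 negative at 12 h. Under 0.01, 12 were positive at 6 h and 22 positive and 0 negative at 12 h. With the adjustment over every row with a p-value, 0 were positive at 3 h, 14 at 6 h and 44 at 12 h, with 2 negative at 12 h. Of the 34 calls of 6 h 13 remained, and of the 81 of 12 h 46. Of 27 calls of named enhancers 16 remained and 11 were lost. When rows under a mean count of 10 were left out of the adjustment, 6 were negative at 12 h of the 1029 then adjusted. Of the 13 negative calls at 12 h, only ENH16 (13.0) and ENH4732 (22.1) had mean counts of 10 or more there. The 6 thus include enhancers outside the 13. Drawn by the mean count of the same time, 62 were positive and 15 negative of 1730 with an adjusted p at 6 h. At 12 h 78 of 2430 were negative, and positive signs were at 45% and 40.5% at 6 and 12 h. Drawn from 20 to under 50 at 0 h, 47.8% and 42.3% had positive signs. Without rows of SE over 2, an alternative chosen after seeing the data, 2 were negative at 12 h. Fewer rows, other rows or another threshold make these differences by construction. The smallest shrunken folds called were 1.18, 1.08 and 1.24 at 3, 6 and 12 h, which are no limits of detection. What the depth of the libraries limits was not tested, since it is unknown for enhancers.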

Other observations

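Some moderately transcribed enhancers, named here after their values were seen, changed in mean count between the tables and were not called in any of them. ENH4071 had mean counts of 41.5 at 0 h, 84.8 at 3 h, 266 at 6 h and 165 at 12 h in the authors' deposited tables, while the median of its class went from 23.2 to 7.52. Its folds were 0.03 ± 0.16, −0.04 ± 0.32 and 0.55 ± 0.55. ENH3391 went the other way, from 11.2 at 0 h to 2.57, 0.322 and 0 in the authors' deposited tables, and it is the 1 enhancer of the 3121 without a p-value at 12 h. At 3 and 6 h ENH3391 held no adjusted p, so it could not be called there. The tables give no values per library, so whether 1 library carries these counts was not tested.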
